A study of Drosophila melanogaster with 30 samples.

Results

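Cells that carried both *Tep4*, a thioester protein gene used as a marker of prohemocytes, and *Hml* (hemolectin), a clotting protein gene switched on as hemocytes differentiate, were taken from all 18 lymph gland libraries of the series. The label under which they were proposed was intermediate progenitors. A barcode was kept with 400 to 5000 detected genes and at most 10% of its UMIs (unique molecular identifiers, 1 per captured transcript) from mitochondrial genes, and it was a member with at least 3 *Tep4* UMIs and at least 3 *Hml* UMIs. This rule found 10406 Tep4+ Hml+ cells among 33882 kept lymph gland barcodes, in a series of 49434 kept barcodes in all. Beside them stood 5397 Tep4+ cells (*Tep4* at least 5 UMIs, *Hml* at most 1) and 5296 Hml+ cells (*Hml* at least 5, *Tep4* at most 1) of the same libraries.

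The lymph gland is the larval blood organ of *Drosophila melanogaster*. Prohemocytes occupy its inner medullary zone, mature hemocytes its outer cortical zone, and cells between these zones that carry markers of both have been called the intermediate zone. Plasmatocytes are the phagocytic hemocytes, crystal cells hold the prophenoloxidases of melanization, lamellocytes encapsulate parasites such as wasp eggs, and the posterior signaling center (PSC) is a small niche marked by *Antp*.

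The study dissociated pooled lymph glands of Oregon-R larvae, a wild-type strain, and profiled single cells by Drop-seq, a droplet method that reads the 3′ ends of transcripts. Normal larvae were sampled at 72 h (5 libraries), 96 h (5) and 120 h (4) after egg laying (AEL), and larvae infested by the parasitoid wasp *Leptopilina boulardi* at 72 h AEL were sampled at 96 h AEL (4 libraries). The members numbered 1100 at 72 h, 3347 at 96 h and 2824 at 120 h AEL, and 3135 after infestation, with 100 to 1142 per library. All larvae were of the same strain, and no reporter or sort was used to pick the cells. Libraries are pools of glands, so p-values between groups of larvae measure the spread between libraries. Those between members and Tep4+ or Hml+ cells measure the spread of these differences over libraries.

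Before the results, 2 libraries need naming. The fifth 72 h library held only 141 kept barcodes, fewer than any other lymph gland library. The fourth 120 h library stood apart from the other 3 of its age: of its cells with at least 3000 UMIs, 14.2% passed the rule after thinning to 3000 UMIs. It also had 4944 CPM of *Nplp2* in the members against 2477 to 2740 CPM in the others. No more than 3 barcodes were shared between any pair of lymph gland libraries, and at most 0.227% of the smaller library. The 4 infested libraries listed 14999 genes and the normal ones 15540, so that *vkg*, *tx*, *stg*, *sra* and *trol* had no infested value. The infested libraries listed as many barcodes as the study kept after its filters on genes, high UMI counts and mitochondrial share. The normal ones listed as many as it had before these filters. In the first infested library 2114 of 2114 barcodes were kept here, in the first normal 96 h library 632 of 650. The part of this difference in any comparison with infested libraries was not tested. Over the lymph gland libraries the kept barcodes had median UMI counts of 3871 to 16056.

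The cells were chosen by their *Tep4* and *Hml* UMIs. Members held a median of 6 *Tep4* UMIs (quartiles 4 and 13) and 9 *Hml* UMIs (quartiles 5 and 18). Tep4+ cells had a median of 13 *Tep4* and 0 *Hml* UMIs, and Hml+ cells 10 *Hml* and 1 *Tep4* UMIs. In the 14 normal libraries *Tep4* averaged 1122 CPM (UMIs of the gene per 1000000 UMIs of the class in a library) in the members against 2312 CPM in Tep4+ cells. *Hml* averaged 1170 CPM in the members against 2062 CPM in Hml+ cells. The members therefore lay below each comparison class in that class's own gene, and these levels are given as a description only.

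The class is a range cut from 2 counts, and whether it forms a separate population was not tested. Of the members, 3044 (29.3%) stood exactly at 3 UMIs in the lower of the 2 genes and 5181 at 3 or 4. Just outside the cut, 4608 cells had 2 UMIs in the lower gene. Pooled *Nplp2* was 21026 CPM in the cells just inside and 19185 CPM in those just outside. *Pxn* was 434 and 446 CPM, and *Ance* 2570 and 2758 CPM. In these sums over libraries of all ages, the 3 genes ran across the cut with little step. The mix of ages and libraries on the 2 sides was not matched, and no value per library was taken.

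Depth differed between the classes. Members had a median of 9702 UMIs and 1909.5 genes, Tep4+ cells 6970 UMIs and 1523 genes, Hml+ cells 5009 UMIs and 1357 genes. A threshold on UMIs passes more of the deeper cells, and a droplet with 1 Tep4+ and 1 Hml+ cell would also pass the rule. The part of either in the results below was not tested as a cause. Each class contrast was also run on depth-matched cells, drawn to equal numbers per class within UMI bins of 0.25 on the log2 scale (detected genes were not matched). It was run on cells thinned to 3000 UMIs as well. There all 3 classes were drawn anew from the thinned counts, so the members were fewer and not the same set. In the first 72 h library they numbered 60 in place of 439. Thinning left out cells with fewer UMIs, 6951 of the 33882 kept lymph gland barcodes.

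The rule was also applied to PSC cells and crystal cells, as reference groups for free RNA. Among 213 PSC cells (at least 3 *Antp* UMIs, median 3968 UMIs), 3.29% had 3 or more *Hml* UMIs, 54.0% had 3 or more *Tep4* UMIs, and 1.88% passed the rule. Among 360 crystal cells (at least 20 UMIs of *PPO1* plus *PPO2*, median 7774 UMIs), 15.3% had 3 or more *Tep4* UMIs and 75.6% 3 or more *Hml* UMIs, and 13.3% passed the rule. Over all kept lymph gland barcodes (median 6248 UMIs), members included, the share that passed averaged 36.4% per library. These groups differed in depth, and the study describes markers of both zones in early crystal cells. The part of free RNA in the members was not tested.

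Markers of other hemocytes were rare in the members. At 3 or more UMIs, 1.44% of members carried *PPO1* plus *PPO2*, 0.0384% carried *Antp* and 2.49% carried *atilla*, a lamellocyte marker. Among Hml+ cells the shares were 3.72%, 0.0567% and 3.12%, and among Tep4+ cells 0.686%, 1.24% and 0.352%. After infestation 5.77% of infested members and 9.18% of infested Hml+ cells carried *atilla*. In normal libraries its order was the other way. There 1.36% of members and 0.467% of Hml+ cells carried it at 72 h, 0.598% and 0.42% at 96 h, and 1.52% and 0.528% at 120 h. Crystal cell markers were in 6.25% of normal 96 h Hml+ cells and in 0.310% of infested Hml+ cells.

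The share of kept barcodes that were Tep4+ Hml+ fell with age in the means. At 72 h AEL the 5 libraries gave 43.9%, 37.2%, 44.2%, 48.0% and 70.9%, the last being the library of 141 barcodes. At 96 h AEL they gave 29.3%, 22.0%, 45.8%, 36.3% and 47.9%. At 120 h AEL they gave 18.3%, 23.1%, 25.7% and 30.4%. All 4 libraries of 120 h lay below all 5 of 72 h, while 96 h overlapped both. The 4 infested libraries gave 43.6%, 38.4%, 23.3% and 27.3%, inside the range of normal 96 h.

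The mean share was 48.9% ± 12.9 (SD, n = 5) at 72 h, 36.3% ± 10.9 (n = 5) at 96 h, 24.4% ± 5.04 (n = 4) at 120 h and 33.2% ± 9.45 (n = 4) after infestation. From 72 to 120 h AEL the mean share changed by -24.5 points (p = 0.0159 in an exact permutation test, two-sided, and 0.0635 after adjustment over 4 comparisons), which missed the threshold of 0.05 after adjustment. The smallest two-sided p the exact test allows is 0.00794 for 5 against 5 libraries and 0.0159 for 5 against 4. The value from 72 to 120 h, where the libraries did not overlap, was thus the smallest possible. For 4 against 4 libraries the smallest is 0.0286. Between 72 and 96 h the difference was -12.6 points (exact permutation p = 0.159, adjusted 0.212) and between 96 and 120 h -11.9 points (exact permutation p = 0.111, adjusted 0.212). Infestation gave -3.11 points (exact permutation p = 0.635, adjusted 0.635). Without the fifth 72 h library the difference between 72 and 120 h was -19.0 points (exact permutation p = 0.0286, adjusted 0.114) and that between 72 and 96 h -7.06 points. Thinning to 3000 UMIs left out the cells below that depth. These were 212 of 2426 kept barcodes at 72 h, 2146 of 9830 at 96 h, 1892 of 11484 at 120 h and 2701 of 10142 after infestation. Among the cells thinned the shares were 10.0% ± 4.09, 11.8% ± 7.93, 5.24% ± 6.00 and 11.3% ± 4.45 in the same order. The difference from 72 to 96 h turned to 1.75 points (exact permutation p = 0.706). That from 72 to 120 h was -4.79 points (exact permutation p = 0.222, adjusted 0.444). At 72 h AEL members had a median depth of 12283 to 17330.5 UMIs per library, against 7853.5 to 13326 at 96 h. Over all kept barcodes the library medians averaged 10707 UMIs at 72 h, 6698.5 at 96 h and 7441 at 120 h. The part of depth in the shares was not tested.

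**Figure D1:**
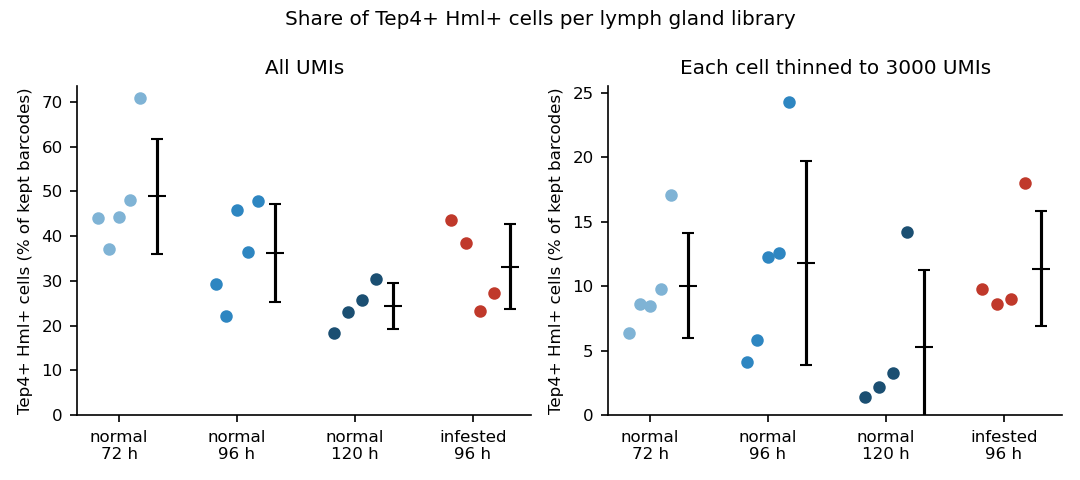
Share of kept lymph gland barcodes that were Tep4+ Hml+ (y axis, percent) by group (x axis), 1 point per library, with the mean and SD as a black bar. The unthinned shares (left) run from 18.3% to 70.9%, with every 120 h library below every 72 h library. After thinning to 3000 UMIs per cell (right), which leaves out cells below that depth, the groups overlap.

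Other genes were compared between the classes on UMIs summed per library and class, with the library as a block. More genes placed the members between the comparison classes than above or below both. Of 6911 genes tested, 929 were higher in members than in Tep4+ cells (13.4% of all genes) and 977 lower (14.1%), at an adjusted p under 0.05. Against Hml+ cells 678 were higher (9.81%) and 481 lower (6.96%). Genes above Tep4+ and below Hml+ cells numbered 237 (3.43%), and genes below Tep4+ and above Hml+ cells 369 (5.34%). On the log2 scale the first set lay at a median of 0.625 of the way from the Tep4+ to the Hml+ level, with 190 of 237 nearer the Hml+ cells. The second lay at 0.456, with 99 of 369 nearer the Hml+ cells. These positions describe genes selected for lying between the classes, and no test was run on them. The rule itself sets members between the classes in *Tep4* and *Hml*. Genes that follow either would also lie between, so the larger counts there, in normal and infested libraries, are a description only. Depth-matched cells gave fewer calls in both contrasts, 1053 in place of 1906 and 662 in place of 1159.

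**Figure D2:**
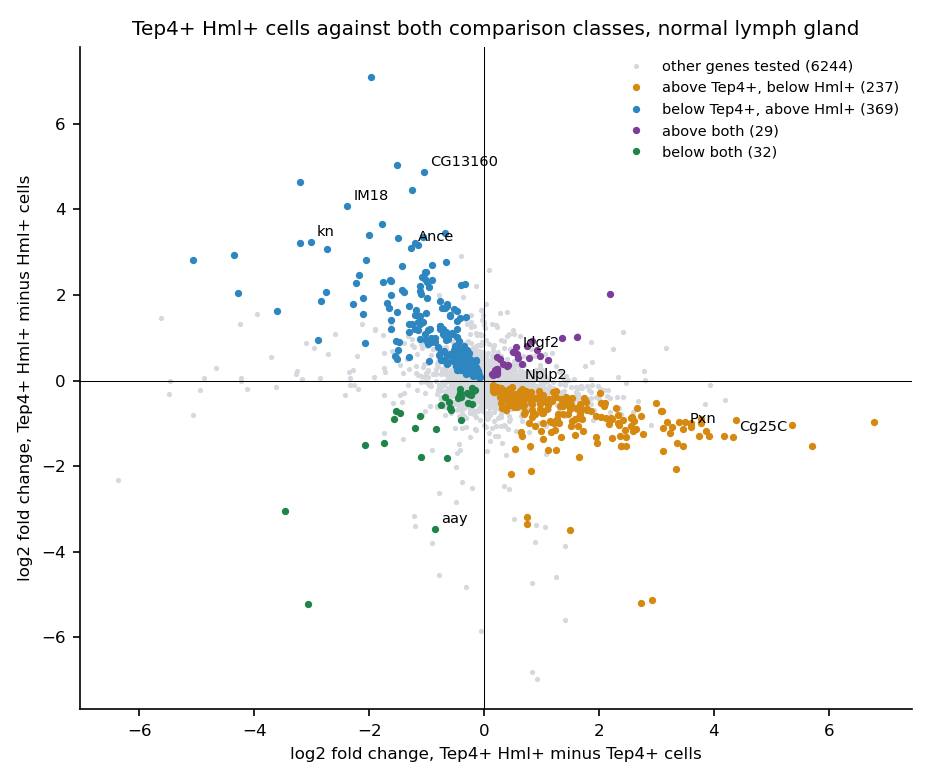
Each point is 1 of the genes tested in the normal lymph gland, by its log2 fold change of Tep4+ Hml+ over Tep4+ cells (x axis) and over Hml+ cells (y axis), coloured where both contrasts passed an adjusted p of 0.05. Most coloured points lie in the upper left (369 genes) and lower right (237), where the members are between the classes, against 29 above both and 32 below both.

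Most prohemocyte genes were lower than in Tep4+ cells. Of 16 prohemocyte genes tested (all-gene median log2 fold change -0.02 against Tep4+ cells), 3 were higher and 10 lower than in Tep4+ cells, with a median of -0.997. Against Hml+ cells 5 were higher (*kn*, *Ance*, *CG15115*, *shg* and *et*), 2 were lower (*Ser* and *N*) and 9 did not pass, with a median of 0.01. *kn* (Collier, a transcription factor of the niche and of progenitors) differed from Tep4+ cells by a log2 fold change of -3.02 ± 0.15 (SE, adjusted p = 1.2e-16). Hml+ cells were near 0 for it, at 0 to 1.20 CPM per library. Among the 3 higher genes were *Ser*, a Notch ligand, and *N*, the Notch receptor. *dome*, the JAK/STAT receptor, and *shg*, E-cadherin, were among the lower ones.

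Genes of the extracellular matrix were raised over Tep4+ cells. Of 13 basement membrane genes, 12 were higher than in Tep4+ cells and none lower (median 2.13), and 11 were lower than in Hml+ cells and none higher (median -0.87, all genes 0.01). *Cg25C* and *vkg*, the chains of collagen IV, exceeded Tep4+ cells by 4.33 ± 0.42 (adjusted p = 7.9e-10) and 4.18 ± 0.37 (adjusted p = 1.3e-10). Against Hml+ cells they lay at -1.32 ± 0.35 (adjusted p = 0.0073) and -1.29 ± 0.31 (adjusted p = 0.0028). Of 12 mature plasmatocyte genes, which include phagocytosis receptors, 7 were higher than in Tep4+ cells, 1 was lower (*NimB2*) and 4 did not pass (median 0.84). Against Hml+ cells 5 were lower, 2 were higher (*Sr-CIII* and *He*) and 5 did not pass (median -0.52). Among them *NimC1* was at 2.77 ± 0.22 over Tep4+ cells (adjusted p = 1.4e-11) and -1.24 ± 0.19 against Hml+ cells (adjusted p = 7.1e-06), *eater* at 1.43 ± 0.13 (adjusted p = 2.6e-10) and -0.49 ± 0.13 (adjusted p = 0.0067).

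All 12 crystal cell genes were lower in members than in Hml+ cells (median -3.82), and all 8 PSC genes were lower than in Tep4+ cells (median -3.92). These are the lists whose markers the comparison classes carried more often than the members did. Of 13 antimicrobial peptide genes, 8 were higher than in Hml+ cells and none lower (median 1.09), among them *CecA2*, a cecropin, and *AttA*, an attacin. Against Tep4+ cells 1 was higher (*Drs*, drosomycin) and 3 were lower.

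PH4 and PM1 are subclusters of prohemocytes and plasmatocytes whose genes were chosen on these same samples, so their directions are not independent evidence. Of the 10 PH4 genes tested, 7 were lower than in Tep4+ cells and 1 higher (median -0.83), and 9 were higher than in Hml+ cells and none lower (median 2.01). Of the 5 PM1 genes, all were higher than in Tep4+ cells (median 3.47) and 4 lower than in Hml+ cells (median -1.13). The gene higher than in Tep4+ cells on the PH4 list was *Nplp2*, and the PM1 gene that did not pass against Hml+ cells was also *Nplp2*.

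*Nplp2*, named as a neuropeptide-like precursor and described by the study as an apolipoprotein, is on both lists. In the members it reached 36834, 35043, 34527, 34204 and 38117 CPM at 72 h AEL, 28705, 26420, 27263, 27385 and 25373 CPM at 96 h, and 2477, 2740, 2608 and 4944 CPM at 120 h. The ages did not overlap, and the highest value at 120 h was that of the fourth library. Tep4+ cells averaged 25933, 19742 and 1415 CPM at these ages and Hml+ cells 44428, 28600 and 3551 CPM. Over all normal libraries *Nplp2* was higher in members than in Tep4+ cells (0.61 ± 0.09, adjusted p = 1.4e-06), and the difference from Hml+ cells, -0.11 ± 0.09, did not pass (adjusted p = 0.49). In infested libraries it passed over both classes, by 0.46 and 0.15 (adjusted p = 4.4e-11 and 0.0079).

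*IM18*, which encodes an immune-induced peptide, lay furthest below Tep4+ cells among the PH4 genes. The normal members held between 80.1 and 749.7 CPM (median 364.5), Tep4+ cells between 329.3 and 3850 CPM (median 1978) and Hml+ cells between 1.49 and 77.4 CPM (median 20.1). In each of the 13 libraries with all 3 classes the members lay below the Tep4+ and above the Hml+ cells of that library, and they lay above every Hml+ value. The log2 fold change was -2.38 ± 0.17 against Tep4+ cells (adjusted p = 4.1e-13) and 4.08 ± 0.22 against Hml+ cells (adjusted p = 1.4e-15). *CG13160*, of no role stated here, behaved alike at -1.05 ± 0.11 (adjusted p = 3.2e-09) and 4.87 ± 0.23 (adjusted p = 1.1e-16), and *NK7.1*, a homeobox gene, at -1.02 ± 0.08 (adjusted p = 1.5e-12) and 2.54 ± 0.10 (adjusted p = 1.8e-18).

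*Ance*, the angiotensin-converting enzyme, marks prohemocytes. At 72 h AEL the members held 2056, 2402, 2536, 1664 and 2413 CPM, at 96 h 2212, 2285, 1982, 2178 and 2056 CPM, and at 120 h 6085, 4710, 4066 and 3941 CPM. The 120 h libraries stood above the earlier ones without overlap. Tep4+ cells averaged 4578, 5334 and 11076 CPM and Hml+ cells 272, 257 and 611 CPM. Members were lower than Tep4+ cells by -1.27 ± 0.06 (adjusted p = 5.6e-18) and higher than Hml+ cells by 3.11 ± 0.06 (adjusted p = 1.4e-27).

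*Pxn* (peroxidasin, a matrix enzyme) ran the other way. Normal members held 227.7 to 626.1 CPM (median 297.5), Tep4+ cells 0.976 to 123.6 CPM (median 15.0) and Hml+ cells 575.4 to 1225 CPM (median 755.6). The members lay above every Tep4+ value and, but for overlap at the top, below the Hml+ values. The log2 fold changes were 3.47 ± 0.33 over Tep4+ cells (adjusted p = 5.3e-10) and -1.13 ± 0.29 against Hml+ cells (adjusted p = 0.0046). *Ppn* (papilin, a matrix proteoglycan) gave 3.27 ± 0.10 (adjusted p = 4.9e-22) and -1.09 ± 0.09 (adjusted p = 3.8e-11).

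The members were spread along this range rather than alike. By the *Tep4* share of a cell's *Tep4* and *Hml* UMIs, 2665 members lay on the *Tep4* side (at least 66.7%), 4412 on the *Hml* side (at most 33.3%) and 3329 between. At 96 h AEL *Ance* averaged 4874 CPM ± 155 (SD, n = 5) on the *Tep4* side, 2097 ± 279 in even cells and 441 ± 56.1 on the *Hml* side. *Pxn* averaged 37.7 ± 9.08, 230.3 ± 26.5 and 716 ± 245 CPM in the same bins. *Nplp2* moved far less, from 23387 ± 1240 through 25933 ± 1970 to 29925 ± 1539 CPM. The *Tep4* side was thus close to the Tep4+ class in *Ance* (5334 ± 291 CPM) and the *Hml* side nearer the Hml+ class, with the even cells between. The bins were cut with the genes that chose the members, so no test was run on them.

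**Figure D3:**
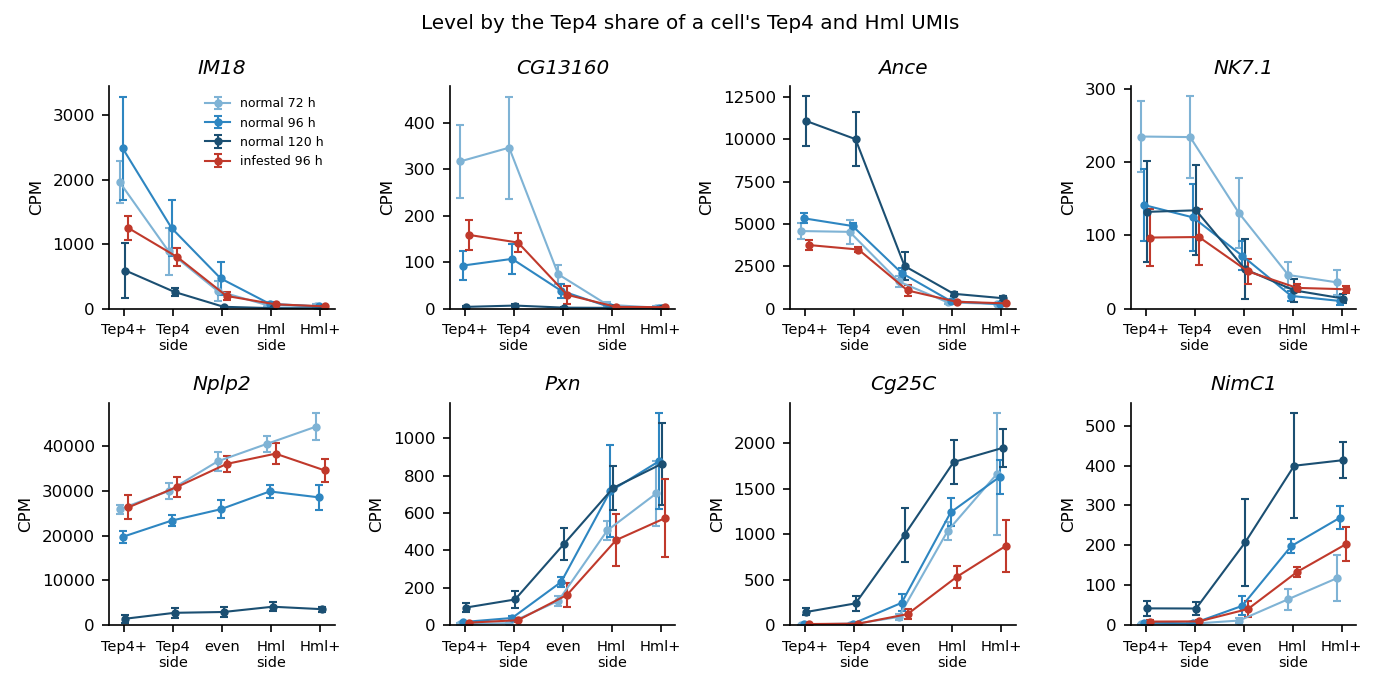
Mean level (CPM, y axis) with SD over libraries in 5 bins of cells from Tep4+ through the Tep4 side, even and Hml side of the members to Hml+ (x axis), 1 line per group of libraries. *IM18*, *CG13160*, *Ance* and *NK7.1* fall and *Pxn*, *Cg25C* and *NimC1* climb along the bins, while *Nplp2* climbs less and lies at 1415 to 4098 CPM in all bins at 120 h.

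Some genes stood above both comparison classes. Over the normal lymph gland they numbered 29 of 6911 (0.42%), and 32 (0.463%) lay below both. With depth-matched cells 7 genes were above both, 5 of them among the 29 (*CG8157*, *CG9265*, *Cyt-b5-r*, *Idgf2*, *tx*), and with cells thinned to 3000 UMIs 2, *CG8157* and *Idgf2*, both among the 29. Of the 29, only those 5 kept the call in depth-matched cells and those 2 in thinned cells, where the classes were redrawn and smaller. The part of depth and that of fewer cells in the lost calls were not told apart. Leaving out cells with markers of crystal cells, PSC or lamellocytes gave 20 genes above both, 17 of the 29.

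*Idgf2*, an imaginal disc growth factor of the chitinase-like family, was above both classes in 13 of 13 libraries that had all 3 classes. At 72 h AEL the members held 585.5, 585.5, 532.5, 485.9 and 665.1 CPM, at 96 h 599.8, 547.6, 604.2, 547.7 and 487.2 CPM, and at 120 h 356.3, 313.6, 198.9 and 300.3 CPM. Tep4+ cells ran from 146.9 to 408.5 CPM and Hml+ cells from 137.6 to 456.9 CPM over the same libraries. Within 72 and 96 h the members lay above every value of the other classes, and at 120 h the 3 classes overlapped between libraries. The log2 fold change was 0.57 ± 0.07 over Tep4+ cells (adjusted p = 2.4e-08) and 0.63 ± 0.07 over Hml+ cells (adjusted p = 1.5e-08). With depth-matched cells it was 0.48 and 0.60, with thinned cells 0.31 and 0.63, past the threshold in all 4. It was also the only gene called above both classes at each of 72, 96 and 120 h.

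*CG8157* behaved less evenly. Members held 42852, 47099, 39952, 46158 and 41751 CPM at 72 h AEL, 29650, 28987, 34185, 36110 and 40050 CPM at 96 h, and 4841, 5568, 4808 and 12721 CPM at 120 h, the last again the fourth library. The fold change was 0.60 ± 0.10 over Tep4+ cells (adjusted p = 1.7e-05) and 0.52 ± 0.10 over Hml+ cells (adjusted p = 2.8e-04). At 72 h, however, the members averaged 43563 CPM ± 3003 against 47595 ± 9452 in Hml+ cells, so that they were not above Hml+ cells in the mean at that age, and 10 of 13 libraries were above both.

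*Cyt-b5-r*, a cytochrome b5-related gene, exceeded the classes by 0.83 ± 0.12 (adjusted p = 1.2e-06) and 0.93 ± 0.13 (adjusted p = 3.1e-06), with members at 57.9 CPM ± 18.7 at 72 h AEL, 31.6 ± 5.28 at 96 h and 2.88 ± 1.95 at 120 h. *tx* (taxi, a transcription factor) was at 0.93 ± 0.11 (adjusted p = 2.6e-08) and 0.73 ± 0.11 (adjusted p = 8.0e-06), above both in 12 of 13 libraries. *Irk1*, an inward-rectifier potassium channel, was above both in 13 of 13 libraries by 0.66 ± 0.11 (adjusted p = 2.8e-05) and 0.39 ± 0.12 (adjusted p = 0.020). *RapGAP1*, a GTPase activator of Rap, *sra*, a calcineurin regulator, *mthl4*, *CG17855*, *CG17841*, *CG4019* and *CG33460* made up the rest of the 12 largest, the smaller of their 2 fold changes ranging from 0.23 to 0.53. At depth-matched cells *Irk1*, *RapGAP1* and *sra* were not above both.

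**Figure D4:**
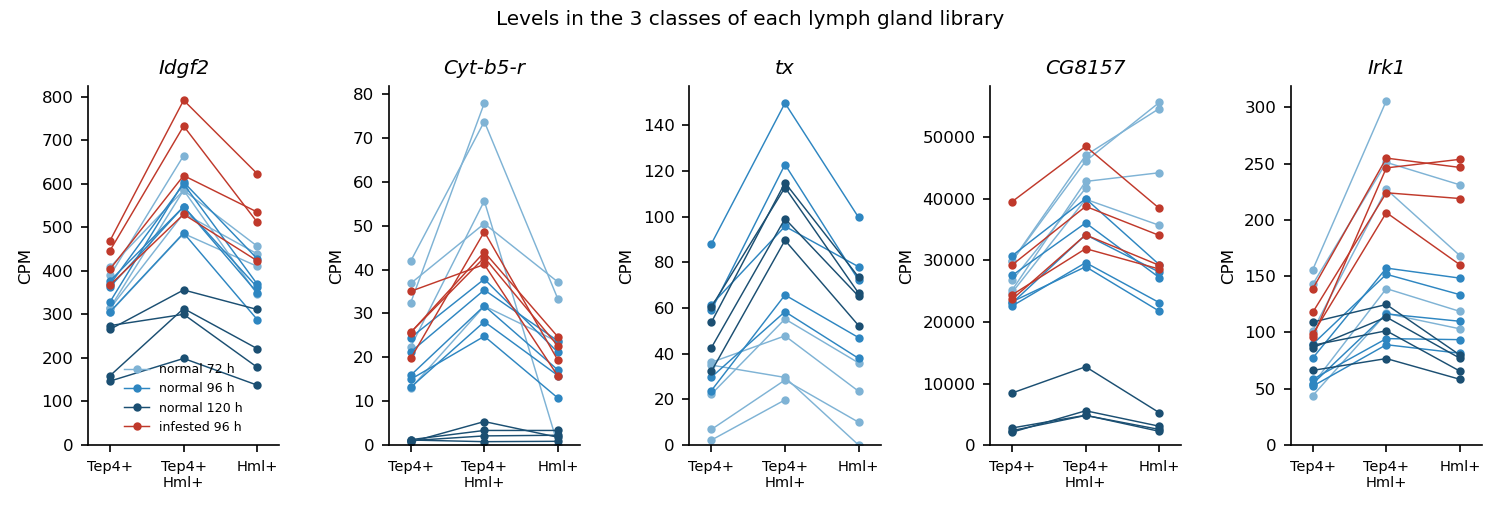
Level (CPM, y axis) of 5 genes above both classes in Tep4+, Tep4+ Hml+ and Hml+ cells (x axis), with 1 line per lymph gland library coloured by group. The line for *Idgf2* peaks in the members in every library with all 3 classes, while *CG8157* goes on climbing to the Hml+ cells in 3 of the 4 libraries of 72 h with all 3 classes, and *tx* has no infested values.

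Genes below both classes were led by *Hsp23*, a small heat shock protein, at -1.09 ± 0.37 against Tep4+ cells (adjusted p = 0.026) and -1.78 ± 0.41 against Hml+ cells (adjusted p = 0.0018). Its level in members ran from 3.77 to 6467 CPM over the 14 libraries, with the highest in the second 120 h library. *aay*, phosphoserine phosphatase, lay at -0.86 ± 0.25 (adjusted p = 0.0094) and -3.47 ± 0.23 (adjusted p = 3.0e-13). Without cells that carried crystal cell, PSC or lamellocyte markers, *Hsp23*, *aay* and *CR43650* lay at 0.09, 0.78 and 0.04 against Hml+ cells, so these 3 directions did not hold there. *scyl* and *chrb*, relatives of REDD1 that restrain TOR, were below both by -0.46 ± 0.13 (adjusted p = 0.0081) and -0.41 ± 0.14 (adjusted p = 0.042) for *scyl* and by -0.27 ± 0.10 (adjusted p = 0.039) and -0.52 ± 0.11 (adjusted p = 4.9e-04) for *chrb*. *tna*, *glec*, *CG13077*, *CR43650*, *CG15083*, *CG12262*, *Sin3A* and *CG3638* completed the 12. With depth-matched cells 12 genes were below both, 9 of them among the 32, and with thinned cells 7, 3 of them among the 32. *Hsp23* kept the call in both, *aay* with depth-matched cells alone and *scyl* with thinned cells alone. *chrb* kept it in neither, and in thinned cells its fold changes turned to 0.12 and 0.0073. The count of genes below both fell to 18 without the fourth 120 h library and to 14 without cells of other-type markers.

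Within single ages the genes above both numbered 17 at 72 h (0.246%), 42 at 96 h (0.608%) and 26 at 120 h (0.376%), and those below both 4 (0.0579%), 28 (0.405%) and 18 (0.26%). The 72 and 96 h lists shared 7 genes, 41.2% of the first and 16.7% of the second, and the 96 and 120 h lists shared 4, 9.52% and 15.4%. Besides *Idgf2*, *Adgf-A*, which encodes an extracellular adenosine deaminase, was above both at 72 and 120 h. The counts at single ages moved from 9 to 24, from 20 to 50 and from 17 to 32 as each library was left out.

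In infested libraries the members again lay mostly between the classes, with 203 genes above Tep4+ and below Hml+ cells (3.12% of 6503) and 257 the other way (3.95%). Above both were 47 (0.723%) and below both 25 (0.384%). The 47 shared 6 with the 29 of the normal lymph gland, 12.8% and 20.7% of the lists (*CG33460*, *CG33510*, *CG4019*, *CG8157*, *Cyt-b5-r*, *Idgf2*). With depth-matched cells 39 were above both, 30 of them among the 47, and with thinned cells 13, of which 10 were among the 47. *Idgf2* stood at 733, 792, 619 and 530 CPM in infested members, against 367.7 to 469.8 CPM in Tep4+ and 423.2 to 623.4 CPM in Hml+ cells of those libraries. In each infested library the members exceeded both classes, by 0.65 ± 0.06 (adjusted p = 2.2e-10) and 0.42 ± 0.06 (adjusted p = 5.5e-06).

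Among the other genes above both after infestation, *GstE1*, a glutathione S-transferase, held 247.4, 295.1, 292.3 and 182.1 CPM in infested members and exceeded Tep4+ cells by 1.62 ± 0.10 (adjusted p = 9.4e-14) and Hml+ cells by 0.49 ± 0.09 (adjusted p = 3.1e-04). *Arc1*, which encodes a capsid-like protein known from neurons, exceeded Tep4+ cells by 0.46 ± 0.06 (adjusted p = 2.3e-07) and Hml+ cells by 0.46 ± 0.06 (adjusted p = 1.8e-06). Its neighbour in name *Arc2* was at 0.40 ± 0.09 (adjusted p = 3.7e-04) and 0.39 ± 0.09 (adjusted p = 0.0024). *AttB*, an attacin, was above both by 0.50 ± 0.13 (adjusted p = 0.0027) and 1.04 ± 0.15 (adjusted p = 9.2e-06) in 3 of 4 libraries. It lost the call with depth-matched cells, and with thinned cells its fold changes turned to -0.14 and -0.044. Among genes below both, *RnrS*, the small subunit of ribonucleotide reductase, lay at -0.67 ± 0.09 (adjusted p = 3.8e-07) and -0.32 ± 0.10 (adjusted p = 0.025), and *dpa*, which encodes the Mcm4 subunit of the replicative helicase, at -0.34 ± 0.12 (adjusted p = 0.022) and -0.41 ± 0.12 (adjusted p = 0.023). Of 31 DNA replication genes 12 were lower in infested members than in infested Tep4+ cells and none was higher, where 19.5% of all 6503 genes were lower and 20.3% higher. With depth-matched cells 15 genes were below both, 4 of them among the 25 (*Akap200*, *Iswi*, *dpa* and *l(1)10Bb*), so *RnrS* lost the call. With thinned cells 4 were below both, 2 of them among the 25 (*His2Av* and *Rrp1*), and *dpa* turned to 0.057 against Hml+ cells.

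The members of different ages were then compared with each other. From 72 to 96 h AEL, 500 of 7159 genes were higher (6.98%) and 541 lower (7.56%). Of 13 antimicrobial peptide genes 7 rose and none fell (median 1.81, all genes 0.02). *Drs* held 74.2, 76.8, 0, 11.8 and 0.549 CPM at 72 h and 241.6, 506.4, 317.8, 390.0 and 644.9 CPM at 96 h, without overlap (3.47 ± 0.71, adjusted p = 0.0033). *AttB* rose by 2.45 ± 0.51 (adjusted p = 0.0036). Of 12 mature plasmatocyte genes 6 rose and 1 fell (median 1.06), and *NimC1* went from 18.4 to 41.8 CPM over the 72 h libraries to 86.7 to 123.9 CPM at 96 h (1.57 ± 0.23, adjusted p = 2.5e-04). *Inos*, inositol-phosphate synthase, held at most 9.25 CPM at 72 h and at least 303.1 CPM at 96 h (6.42 ± 0.43, adjusted p = 3.3e-08).

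*Sema-2b*, a secreted semaphorin, fell most. Its levels were 30.5, 40.1, 33.2, 54.1 and 46.7 CPM at 72 h AEL and 5.23, 1.78, 2.97, 1.75 and 2.78 CPM at 96 h, with no overlap (-4.11 ± 0.25, adjusted p = 1.2e-08). *trol*, the perlecan gene, fell from 297 CPM ± 53.8 to 65.6 ± 20.3 (-2.31 ± 0.25, adjusted p = 1.1e-05). *PPO1*, a crystal cell prophenoloxidase, lay at 0 to 0.431 CPM in 72 h members and at 20.9 to 164.4 CPM at 96 h. Beside it, crystal cell markers were in 0.273% of the members and 0.935% of Hml+ cells at 72 h, and in 1.73% and 6.25% at 96 h, and the part of such cells' RNA in the members was not tested. *Nplp2* fell by 0.54 on the log2 scale (adjusted p = 0.040), and 5 of the 10 PH4 genes fell while none rose.

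From 96 to 120 h AEL 1344 genes were higher (18.8%) and 1277 lower (17.8%), 2621 in all, and 2729 without the fourth 120 h library. The comparisons with 72 h, 120 h and infested members share the same normal 96 h libraries. Genes of the cell cycle fell together: of 41 mitosis genes 34 were lower and 1 higher (median -0.80, all genes -0.03), and of 33 DNA replication genes 27 were lower and none higher (median -0.76). *PCNA*, the replication clamp, held 121.4, 89.2, 104.8, 86.9 and 95.2 CPM at 96 h and 66.4, 58.6, 43.1 and 53.5 CPM at 120 h (-0.76 ± 0.12, adjusted p = 1.5e-04). *stg*, the Cdc25 phosphatase that opens mitosis, fell by 1.28 on the log2 scale (SE 0.25, adjusted p = 8.1e-04). The 2 ages did not overlap in *PCNA*. UMIs were summed over cells, and whether fewer members carried these transcripts or each carried less was not tested.

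*Nplp2* fell by 2.98 on the log2 scale (SE 0.20, adjusted p = 3.5e-08) and by 3.28 without the fourth 120 h library. *CG13160* fell from 30.3 to 58.1 CPM at 96 h to 1.48 to 5.35 CPM at 120 h (-3.71 ± 0.31, adjusted p = 2.8e-07). *GstD7*, a glutathione S-transferase, fell from 93.4 CPM ± 16.0 to 9.10 ± 2.13 (-3.26 ± 0.20, adjusted p = 2.6e-08), *Cyt-b5-r* changed by -3.39 (adjusted p = 9.9e-07) and *bmm*, the Brummer lipase, by -2.59 (adjusted p = 3.6e-05). In all 5 genes the ages did not overlap. Of the PH4 genes 5 fell, and *Ance* rose by 1.21 ± 0.12 (adjusted p = 1.7e-06).

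Genes that rose at 120 h were led by several almost silent before. *Ama*, an immunoglobulin-domain protein, held 0.297 to 2.24 CPM at 96 h AEL and 284.8, 349.2, 279.4 and 50.7 CPM at 120 h (7.75 ± 0.52, adjusted p = 3.9e-08). *CG34296* had 2 UMIs in all 96 h members and 384.7, 450.5, 173.6 and 9.76 CPM at 120 h. *NLaz*, a lipocalin, ran from 2.05 to 100.1 CPM at 120 h and *Dtg* from 17.9 to 103.3 CPM, and the fourth library was the lowest in all 4 genes. Of 13 genes of subclusters described for 120 h from these same samples, all 13 rose (median 3.91), which is no independent evidence. *NimC1* rose further to 145.6 to 252.2 CPM (1.02 ± 0.22, adjusted p = 0.0020), among 8 of 12 mature plasmatocyte genes that rose and 2 that fell (median 1.06). Of 11 heat shock and stress genes 6 rose and 1 fell, with *Hsp23* at 944.5, 6467, 1037 and 90.2 CPM, so that the second library carried most of it.

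Infestation changed 359 genes upward (5.29% of 6785) and 388 downward (5.72%) in the members, against normal larvae of the same age. Antimicrobial peptide genes fell: 7 of 13 were lower and none higher (median -1.90, all genes 0.01). *Drs* held 88.8, 35.4, 6.38 and 3.36 CPM in infested members against 241.6 to 644.9 CPM in normal ones (-3.74 ± 0.72, adjusted p = 0.0067). *AttB* fell by 2.82 (SE 0.61, adjusted p = 0.013), from 341.3 to 631.1 CPM down to 8.54 to 134.3 CPM. *CG16713* fell by 4.07 (SE 0.70, adjusted p = 0.0041). In each of these 3 genes every infested library lay below every normal one.

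Lamellocyte genes rose, 5 of 11 with none lower (median 0.83). *atilla* held 151.7, 145.8, 107.0 and 53.7 CPM against 0.373 to 27.7 CPM (3.34 ± 0.61, adjusted p = 0.0052), without overlap. *Dbi*, an acyl-CoA binding protein, held 444.0, 604.8, 513.6 and 402.1 CPM against 60.9 to 96.5 CPM (2.44 ± 0.17, adjusted p = 9.1e-06). *Sema-2b* stood at 23.9, 22.1, 38.4 and 47.0 CPM after infestation against 1.75 to 5.23 CPM, beside 30.5 to 54.1 CPM at 72 h (3.46 ± 0.29, adjusted p = 3.6e-05). *mthl4* rose from 7.58 to 30.8 CPM to 144.9 to 201.4 CPM (3.06 ± 0.31, adjusted p = 1.3e-04). Cells with 3 or more *atilla* UMIs made up 5.77% of infested members.

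*Nplp2* rose slightly, at 33541, 37567, 38488 and 36427 CPM in infested members against 25373 to 28705 CPM (0.27 ± 0.07, adjusted p = 0.024). *Ance* fell to 1164, 978.3, 1155 and 1125 CPM (-1.11 ± 0.10, adjusted p = 4.3e-05), and *IM18* fell by 1.32 (SE 0.25, adjusted p = 0.0060). Of the 10 PH4 genes 5 fell and *Nplp2* alone rose. *PPO1* lay at 0, 10.9, 0 and 0 CPM, and 3 of 9 crystal cell genes fell. The count of changed genes was 747 in all and depended on single libraries: it was 378 without the third infested library, 487 without the second, and 446 without the fourth normal 96 h library.

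**Figure D5:**
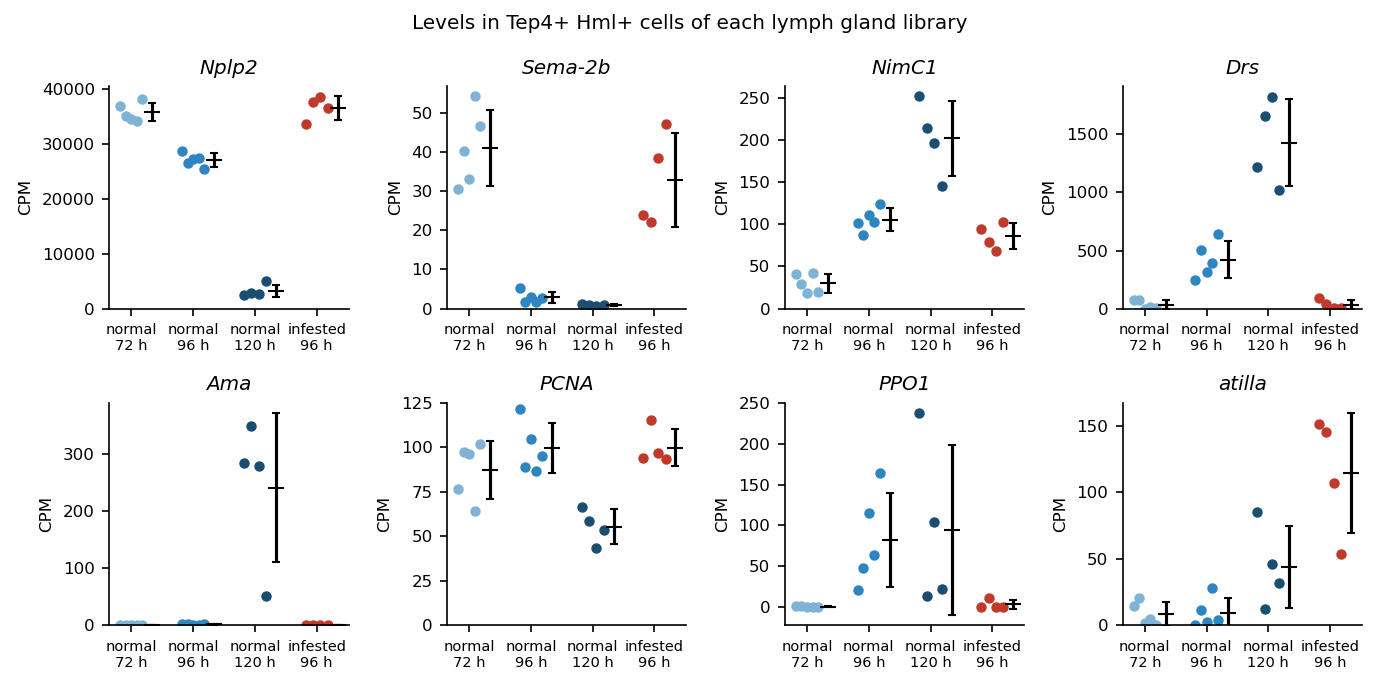
Level (CPM, y axis) of 8 genes in the Tep4+ Hml+ cells of each lymph gland library (points) by group (x axis), with mean and SD as a black bar. *Nplp2* lies at 2477 to 4944 CPM in all 120 h libraries, *Sema-2b* is high at 72 h and after infestation, *Ama* stays at or below 2.24 CPM outside 120 h, and *atilla* reaches 53.7 to 151.7 CPM after infestation.

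Whether the response differed from that of the comparison classes was tested as an interaction. Against the response of Tep4+ cells, 56 of 6503 genes responded higher in the members (0.861%) and 67 lower (1.03%). Against Hml+ cells it was 84 higher (1.29%) and 68 lower (1.05%). The response of *Ance* was lower in the members than in either class, at -0.42 ± 0.06 against Tep4+ cells (adjusted p = 1.7e-04) and -1.23 ± 0.08 against Hml+ cells (adjusted p = 2.9e-12). Of the 10 PH4 genes 3 responded lower than in Tep4+ cells and 7 lower than in Hml+ cells, with none higher (medians -0.05 and -0.70, all genes -0.01 and 0.00). *NK7.1* was among them at -1.90 ± 0.22 against Hml+ cells (adjusted p = 3.8e-07), and *CG13160* at -0.99 ± 0.14 against Tep4+ cells (adjusted p = 7.2e-05).

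*Lip4*, a lipase gene, differed from both classes in opposite directions. The normal 96 h members held 14.4 CPM ± 3.67 and the infested ones 31.4 ± 9.94. The response was 1.18 ± 0.19 above that of Tep4+ cells (adjusted p = 3.8e-04) and differed from that of Hml+ cells by -2.47 ± 0.42 on the log2 scale (adjusted p = 4.5e-04). Of 12 crystal cell genes 8 responded higher than in Hml+ cells and none lower (median 2.92), led by *fok*, whose level in Hml+ cells was 632 CPM ± 319 in normal and 4.95 ± 1.73 in infested libraries. The members held 10.8 ± 8.31 and 6.64 ± 1.78 CPM of *fok*. Crystal cell markers were in 6.25% of the normal and 0.310% of the infested Hml+ cells, and the part of this shift in the result was not tested.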

How the data were processed

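Drop-seq libraries were made by the study from pooled lymph glands, and the deposited tables hold UMI counts per gene and cell barcode, which the authors left unnormalized. By their barcode numbers, the infested lymph gland tables had passed the study's cell filters and the normal lymph gland tables had not. The submitters' processing notes name STAR 2.5.3a, Picard and the BDGP6 build, and the study's methods describe the Drop-seq tools with a minimum read number per barcode set for each library. Kept barcodes summed to 2404970 to 38244591 UMIs per lymph gland library. No doublet caller was run, and the files carry no cell annotation that was used.

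Members, comparison classes and gene lists were chosen with earlier results of these data known. UMIs were summed per library and class where at least 10 cells were present, which left out the Hml+ class of the fifth 72 h library. Sums were tested with edgeR 4.0.16 (quasi-likelihood test, TMM, filterByExpr, R 4.3.3, limma 3.58.1) and Benjamini-Hochberg adjustment over all genes tested, at 0.05. Class contrasts had the library as a block, and contrasts between groups had none. The class effects over normal larvae, at each age and in infested larvae came from separate fits. Shares were compared by exact permutation over libraries. Levels are CPM, computed here as UMIs of a gene per 1000000 UMIs of the class in a library, and means ± SD are over libraries. Infested contrasts used the genes listed in both conditions.

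Genes named were, for each contrast between groups, drawn from the 8 largest rises and 8 largest falls (20 CPM or more where higher), and for genes above or below both classes from the 12 largest by the smaller fold change. To these were added *Nplp2*, genes of PH4 and PM1 and members of the gene lists, some of which were picked after their values were seen, as were *CG9265* and *Adgf-A*. Alternatives were DESeq2 1.42.0, all genes kept whatever their counts, size factors by RLE, other thresholds, a ceiling on UMIs (2 SD above a library's mean), depth-matched and thinned cells, other-type cells left out, 20 cells per sum and each library left out. The fits were tested on simulated data.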

Additional observations from a re-analysis of the deposited data

Results flagged for a closer look

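In 10 of 132 groups of libraries checked, 1 library lay far from the others of its group (Dixon's 95% limit), where chance alone flags about 1 group in 20. The fourth 120 h library was highest for the share of thinned cells passing the rule (14.2%), for *Nplp2* (4944 CPM) and for *CG8157* (12721 CPM). The fourth infested library had the highest thinned share of its group (18.0%). The second 120 h library held 6467 CPM of *Hsp23*, and the second infested library 10.9 CPM of *PPO1* and 115.4 CPM of *PCNA*. At 72 h AEL the fourth library held 202.8 CPM of *NK7.1*. At 96 h AEL the third library had the lowest *CR43855* (2795 CPM), and the fifth the only *CG34296* (0.231 CPM, 2 UMIs).

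The response of the members to infestation differed from that of a comparison class, by the edgeR interaction test at an adjusted p under 0.05, in 32 differences among the 8 largest in each direction. Relative to Tep4+ cells the response was higher for *CG44325* (1.37 on the log2 scale), *CG12522* (1.25), *edl* (1.24), *CG33225* (1.24), *IP3K2* (1.23), *Lip4* (1.18), *CG15083* (1.06) and *Mec2* (1.00). It was lower for *CG1208* (-5.53), *alphaTub85E* (-5.50), *Drip* (-5.10), *CG5835* (-2.96), *CG13315* (-2.66), *CG16713* (-2.05), *CG43124* (-1.93) and *CG9451* (-1.92). Of these, *CG1208* (1.19) and *CG5835* (0.23) turned without cells carrying other-type markers, and *CG13315* (0.61) and *CG16713* (0.11) turned in thinned cells, as did *IP3K2* (-0.24) among the higher ones. Relative to Hml+ cells it was higher for *MtnB* (8.68), *fok* (6.08), *Pde1c* (5.86), *CG17109* (4.66), *CG15343* (4.49), *aay* (4.38), *klu* (4.14) and *peb* (3.84), of which *CG15343* (-0.28) and *aay* (-0.80) turned without other-type cells. It was lower for *Lip4* (-2.47), *CG33225* (-1.92), *NK7.1* (-1.90), *hebe* (-1.47), *IM18* (-1.36), *CG43187* (-1.26), *Ance* (-1.23) and *Tep2* (-1.22).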

How the results depend on the processing

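Counts of called genes moved with several settings. Against Tep4+ cells, 1906 genes became 1053 in depth-matched cells, 1193 without the library block and 796 in cells thinned to 3000 UMIs, and against Hml+ cells 1159 became 662, 585 and 717. Genes above both classes in normal libraries (29) became 7 in depth-matched cells, 7 without the block, 2 in thinned cells and 49 with no filter on low counts. Genes below both (32) became 12, 11 and 7 in the first 3 of these, 19 with the UMI ceiling and 14 without cells carrying other-type markers. At 72 h AEL the 17 genes above both became 4 (matched), 1 (no block), 2 (thinned), 34 (no filter), 9 (DESeq2) and 10 (RLE size factors). At 96 h the 42 became 22, 3 and 13 in the first 3 of these, and 27 without other-type markers. At 120 h the 26 became 7, 1, 1 and 46 in the first 4, and 54 with members at 5 UMIs of each gene. After infestation the 47 became 1 (no block), 13 (thinned), 95 (no filter) and 75 (5 UMIs of each). The infestation response that differed from Tep4+ cells (123) became 81 (matched), 4 (no block), 37 (thinned) and 201 (no filter), and from Hml+ cells (152) 100, 28, 28 and 235, with 87 without other-type markers. Thinning left 219 of 1041 calls in number from 72 to 96 h, 286 of 2621 from 96 to 120 h and 227 of 747 after infestation. In all thinned fits the members were redrawn from the thinned counts and were fewer. The share difference from 72 to 96 h turned to 1.75 points at 3000 UMIs, 1.47 at 2000 and 3.50 when the fifth 72 h library was also left out. The cause of these shifts was not tested. Drawing members as well as comparison cells to matched depth replaced the planned draw of comparison cells alone. That draw, the thinned class contrasts, the omission of other-type cells and the thinned share without the fifth 72 h library were chosen after seeing the data.

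Leaving out 1 library at a time gave 1658 to 2007 calls against Tep4+ cells and 975 to 1204 against Hml+ cells, 23 to 35 genes above both and 18 to 31 below both (18 without the fourth 120 h library, 21 without the second 96 h library). Genes above both at single ages ranged from 9 to 24 (9 and 11 without 72 h replicate 2 and 4), 20 to 50 (27, 25, 20 and 23 without 96 h replicate 1, 2, 4 and 5) and 17 to 32 (17 without the second 120 h library). Calls between ages ranged from 723 to 1238 and from 2050 to 2777, and after infestation from 378 to 1032, with 32 to 49 genes above both. Responses differing from the classes ranged from 78 (without the fourth normal 96 h library) to 124 and from 105 to 150. Share differences ranged from -15.5 to -7.06 points (96 against 72 h), -15.5 to -8.99 (120 against 96 h), -27.4 to -19.0 (120 against 72 h) and -6.68 to 0.17 (infested, the last without the third infested library).

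With library number as a replicate block the counts between groups were 973, 2375 and 571 genes, and the share differences -12.6, -8.99, -19.0 and -0.20 points in the same order. Same-numbered libraries correlated between -0.32 and 0.36 in their deviations from group means, and other-numbered ones between -0.43 and 0.42. No pairing by number was thus seen, but 4 or 5 same-numbered pairs per comparison are too few to exclude it.

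Single genes reversed in 23 of their recomputed values. In thinned cells these were, for genes above both, *CG17855* (-0.019 and -0.12), *sra* (-0.094), *CG33460* (-0.015), *CR45045* (-0.033) and *AttB* (-0.14 and -0.044). For genes below both they were *Sin3A* (0.036 and 0.042), *chrb* (0.12 and 0.0073), *dpa* (0.057) and *Iswi* (0.12), and for responses *IP3K2* (-0.24), *CG13315* (0.61) and *CG16713* (0.11). Without other-type cells they were *Hsp23* (0.086), *aay* (0.78), *CR43650* (0.041), and the responses of *CG1208* (1.19), *CG5835* (0.23), *CG15343* (-0.28) and *aay* (-0.80). Another 1837 values kept direction and side of the threshold and 254 lost the call. These counts leave out the fits without 1 library, in which 2188 values kept both and 128 lost the call.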

Other observations

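Libraries of circulating hemocytes, which enter no comparison above, also held cells that passed the rule, with 3 libraries per group. The share of kept barcodes was 15.2% to 22.8% in normal larvae at 96 h AEL and 9.14% to 15.5% at 120 h, and 14.6% to 39.3% and 0.588% to 2.77% in infested larvae of those ages. A 96 h and a 120 h library of normal larvae shared 25 barcodes, 7.76% of the smaller one. Among cells with at least 3000 UMIs, each thinned to 3000, the shares were 1.17% to 5.38%, 0.505% to 2.58%, 2.82% to 14.1% and 0% to 0.231%.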
